A study of Sus scrofa with 15 samples.

Results

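The 9 genes described here are the members of the BCL2 family of mitochondrial apoptosis regulators *BCL2*, *BCL2L1*, *MCL1*, *BAX*, *BAK1*, *BID*, *BBC3* and *PMAIP1*, and the initiator caspase gene *CASP9*. They were taken by gene symbol from a table of normalized read counts that holds 28224 known pig genes and 15070 transcripts assembled from the reads. Each of the 9 symbols matched an entry, and all 15 libraries of the table were used.

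Mitochondrial apoptosis is decided at the outer membrane of the mitochondrion. BAX and BAK1 are the effectors that open this membrane, BCL2, BCL2L1 (BCL-XL) and MCL1 are guardians that hold them back, and the BH3-only proteins BID, BBC3 (PUMA) and PMAIP1 (NOXA) are the triggers that engage guardians or effectors. Once the membrane opens, cytochrome c joins APAF1 to form the apoptosome, which activates CASP9, and CASP9 in turn cleaves the caspases downstream of it. Early embryos rely on transcripts stored in the oocyte until their own genome is activated, and fragmentation and cell death are common among embryos made by somatic cell nuclear transfer (SCNT).

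The 15 libraries fall into 5 groups of 3. PFF were the donor cells, pig fetal fibroblasts used at passages 2 to 5. SCNT4c and SCNT8c were cloned embryos at the 4-cell and 8-cell stages without added treatment. SCNT4c-KG were 4-cell cloned embryos injected 5 h after activation with *KDM4A* mRNA (1000 ng/µl), which encodes a demethylase of H3K9me3, and cultured for the first 48 h with 0.1 µM GSK126, which blocks EZH2, the enzyme that writes H3K27me3. SCNT4c-TDG were 4-cell cloned embryos made from a fibroblast line that carried a doxycycline-inducible vector for *TDG*, a thymine DNA glycosylase of the DNA demethylation pathway, and that had been selected with puromycin. These embryos received doxycycline (500 ng/ml) from 40 to 72 h. The donor line, the vector, the selection and the drug therefore came together with TDG induction, and libraries given doxycycline alone were not analysed here. Each embryo library was a pool of 30 embryos, so a value is an average over embryos, and in such bulk pools fewer cells of a kind and less RNA per cell cannot be told apart. The 3 SCNT4c libraries are called a, b and c because their labels number them in conflicting ways.

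The libraries held between 12354649 and 22868038 reads assigned to features, with the fewest in SCNT4c-KG (12354649 to 15390472). *KDM4A* was at 194 ± 103 (SD, n = 3) in SCNT4c and 1448 ± 24.9 in SCNT4c-KG, and *TDG* was at 1713 ± 802 in SCNT4c and 55575 ± 5177 in SCNT4c-TDG, so each was higher in the group that received it than in SCNT4c. Each also rose in the other treated group, with *KDM4A* at 775 ± 194 in SCNT4c-TDG (log2 difference 2.08, limma adjusted p = 0.00375) and *TDG* at 4366 ± 436 in SCNT4c-KG (1.46, limma adjusted p = 0.00195). The summed level of 15 fibroblast markers was 2405 to 9162 in the embryo libraries against at least 4.41e+06 in PFF, and that of cumulus cell markers was 640 to 2004 in the embryos and 861 to 897 in PFF. The summed level of oocyte markers, of which 12 of 13 were in the table, was 161341 to 224780 in SCNT4c, 84644 to 162115 in SCNT4c-KG, 23492 to 27747 in SCNT4c-TDG and 50832 to 135729 in SCNT8c, with *GDF9*, *BMP15* and *MOS* listed at 0 throughout. This sum was lower in every SCNT4c-TDG and SCNT8c library than in SCNT4c, while SCNT4c-KG overlapped with SCNT4c. The sum was given no test, and its part in the results below was not tested. SCNT8c replicate 3 stood closer to SCNT4c (mean correlation over all tested features 0.859) than to the other SCNT8c libraries (0.772), so each SCNT8c difference printed below for a single gene is given with and without it.

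Levels are normalized read counts, that is, reads divided by one factor per library. Differences are log2 differences of value + 1 from limma, and "changed" means an adjusted p below 0.05 together with a difference of more than 2-fold. On this scale the difference of a low gene is understated. The labels do not say whether the libraries of a group came from separate cultures or collections, so the p-values measure only the spread between these libraries. For a single gene an exact permutation test of 3 against 3 libraries cannot go below 0.1.

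The promoter sequences of *PMAIP1* and *BID* are shown because these were the members with the highest levels and the members that changed between embryo groups. *PMAIP1* lies on chromosome 1 from 161184458 to 161188138 on the minus strand and *BID* on chromosome 5 from 69849007 to 69874647 on the minus strand (RefSeq annotation of Sscrofa11.1). Each window runs from 250 bases before to 30 bases after the annotated start, 5′ to 3′ on the strand of the gene. Capitals mark matches on either strand to 3 promoter motifs. The TATA box was searched as TATAAA. The CCAAT motif was searched by the letters of its name. The GC box was searched as GGGCGG. The *PMAIP1* window is chr1:161188109-161188388 and the *BID* window is chr5:69874618-69874897.
PMAIP1: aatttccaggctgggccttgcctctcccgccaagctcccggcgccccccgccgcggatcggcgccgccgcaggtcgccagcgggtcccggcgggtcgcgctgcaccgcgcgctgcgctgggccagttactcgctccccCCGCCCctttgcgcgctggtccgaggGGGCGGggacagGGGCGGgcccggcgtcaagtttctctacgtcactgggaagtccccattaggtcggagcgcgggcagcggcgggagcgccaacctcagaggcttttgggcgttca
BID: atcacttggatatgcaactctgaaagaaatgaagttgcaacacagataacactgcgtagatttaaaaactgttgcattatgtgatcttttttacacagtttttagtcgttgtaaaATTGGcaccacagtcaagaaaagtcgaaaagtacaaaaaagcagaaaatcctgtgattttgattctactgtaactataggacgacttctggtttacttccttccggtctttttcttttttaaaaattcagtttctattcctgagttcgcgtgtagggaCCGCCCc
The *PMAIP1* window is 73.6% G and C with 37 CpG sites and 3 GC boxes, and 90.9% of 19556 annotated promoter windows have fewer CpG sites. The *BID* window is 36.4% G and C with 8 CpG sites, 1 CCAAT box and 1 GC box. Over all windows the median is 58.2% G and C and 14 CpG sites, and 10.5% hold the TATA box, 34.3% the CCAAT box and 49.3% the GC box. These matches describe letters in the window only.

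Among the embryos, *PMAIP1* fell in both treated groups and *BID* was the member that passed the test between the treatments. In SCNT4c-KG, 1 of the 6 members tested changed, and this was *PMAIP1*, which fell. Of all 18942 features 37.2% changed, 17.6% higher and 19.6% lower. The libraries did not overlap for 3 of 6 members (53.9% of all features). In SCNT4c-TDG, 1 of 6 changed (33.3% of all features, 15.7% higher and 17.6% lower), again *PMAIP1*, which fell, and 2 of 6 did not overlap (58.4% of all features). Between SCNT4c-TDG and SCNT4c-KG, 1 of 6 changed (16.2% of all features, 7.07% higher and 9.13% lower), and this was *BID*, which was lower in SCNT4c-TDG. Here 3 of 6 did not overlap (44.4% of all features). Between SCNT8c and SCNT4c, limma found 0 of 6 changed (5.79% of all features, 2.62% higher and 3.16% lower) and 0 of 6 did not overlap (23.5% of all features), with 1 of 6 at an unadjusted p below 0.05, 0 of 6 by edgeR and 1 of 6 by DESeq2. The share of all features in SCNT8c rested on single libraries. The 1096 features changed became 6133 of 18990 without SCNT8c replicate 3, and 31 to 234 without any 1 other library of these groups, so little can be read from the 5.79%. Between SCNT4c-TDG and SCNT4c-KG the 3070 features changed became 1794 to 2521 with 1 library left out. Between PFF and SCNT4c, 6 of 7 changed (78.2% of all 19287 features, 38.5% higher and 39.7% lower in PFF), of which 5 were higher in PFF, and 7 of 7 did not overlap (84.5% of all features). Of the 3 members not tested among the embryos, *BBC3* had too few reads, and *BAX* and *MCL1* were listed at 0 in every library, which gives no level. The median difference of all features was -0.30 for SCNT4c-KG, -0.26 for SCNT4c-TDG and -0.31 for SCNT8c, each against SCNT4c, -0.02 for SCNT4c-TDG against SCNT4c-KG and -0.07 for PFF against SCNT4c. All 4 comparisons with SCNT4c share its 3 libraries, so their values are given side by side and are not independent of each other.

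**Figure D1:**
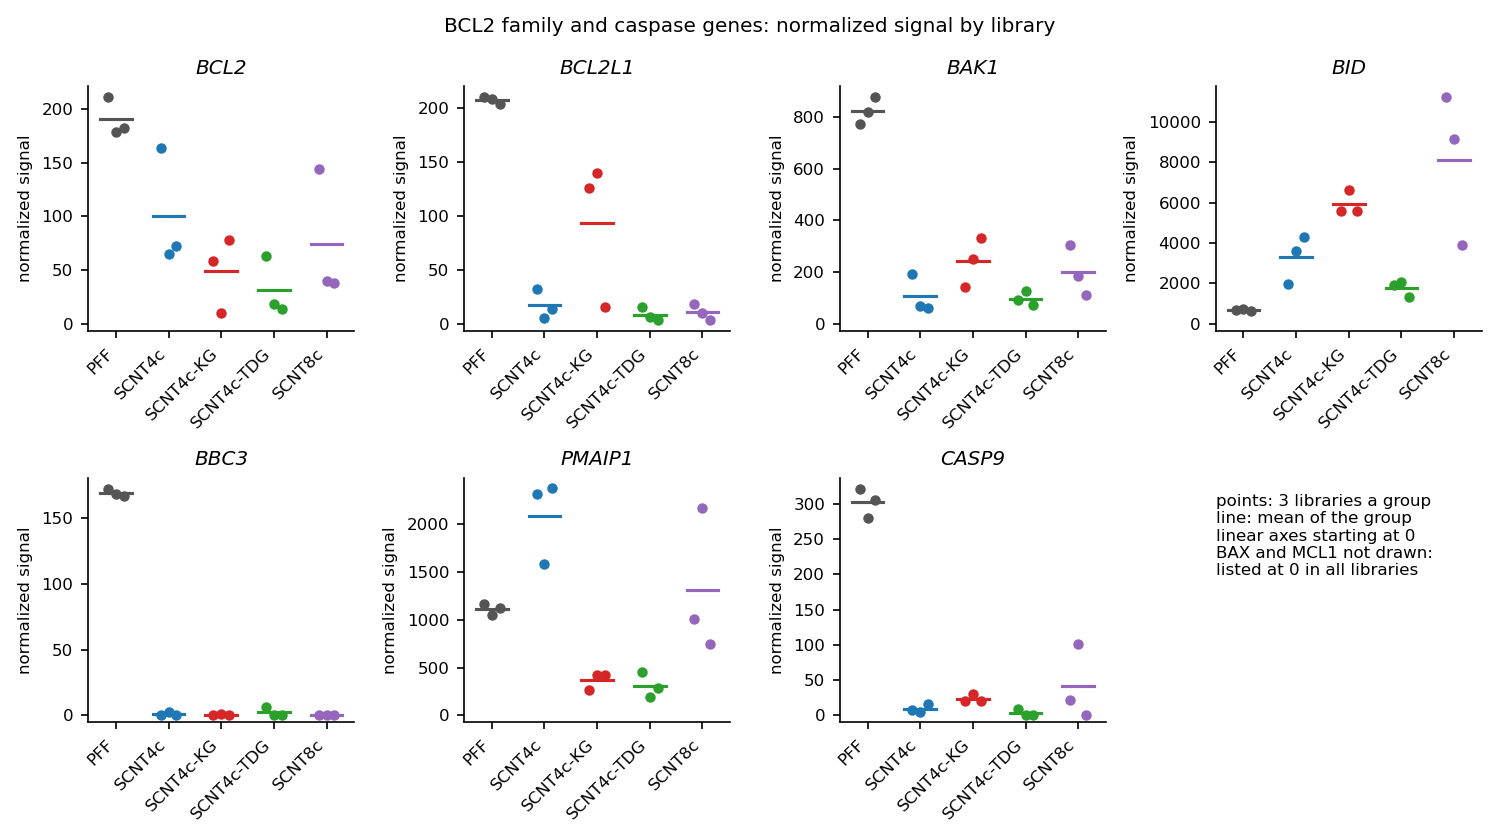
Normalized read count of 7 members (y axis, labelled normalized signal, linear) in the 15 libraries by group (x axis), with points for libraries and lines for group means; *BAX* and *MCL1* are not drawn. *PMAIP1* is at 261 to 421 in SCNT4c-KG and 191 to 448 in SCNT4c-TDG against 1581 to 2379.5 in SCNT4c, and *BBC3* is at 167 to 172 in PFF and at most 6.69 in the embryos.

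The trigger *PMAIP1*, whose protein NOXA neutralises MCL1, was at 1168, 1049 and 1125 in PFF and at 2313, 1581 and 2379.5 in SCNT4c. It was at 261, 421 and 418 in SCNT4c-KG, at 448, 191 and 281 in SCNT4c-TDG and at 1004, 2172 and 748 in SCNT8c. All 6 treated libraries lay below every SCNT4c and every PFF library, while the SCNT8c libraries spanned the PFF values and reached into the SCNT4c range. In SCNT4c-KG *PMAIP1* fell by 2.52 ± 0.43 (SE) on the log2 scale (95% interval -3.43 to -1.60, limma adjusted p = 0.0004), and the means of 2091 and 367 differed 5.70-fold. In SCNT4c-TDG it fell by 2.83 ± 0.43 (-3.75 to -1.91, limma adjusted p = 0.000164), a 6.82-fold difference of means. Relative to the median of all features these differences were -2.21 and -2.57. Both calls were kept under every alternative setting, with differences of -2.71 to -2.29 and -3.15 to -2.53 when any 1 library was left out. The treated groups differed from each other by -0.31 (-1.23 to 0.61, limma adjusted p = 0.677), which leaves room for a difference of more than 2-fold in one direction. In SCNT8c against SCNT4c the difference was -0.80 (-1.72 to 0.11, limma adjusted p = 0.226). In PFF against SCNT4c it was -0.89 ± 0.19 (limma adjusted p = 0.00492), under the 2-fold limit, and it passed that limit in other scalings, at -1.69 with quantile scaling and -1.51 with equal totals.

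The trigger *BID*, which links caspase-8 to the mitochondrion when cleaved, was at 672, 753 and 622 in PFF and at 1981, 3597 and 4295 in SCNT4c. It was at 5575, 6637 and 5606 in SCNT4c-KG, at 1935, 2077 and 1351 in SCNT4c-TDG and at 11258, 9151 and 3892 in SCNT8c. Every embryo library lay above every PFF library, every SCNT4c-KG library lay above every SCNT4c library, and SCNT4c-TDG overlapped with SCNT4c through its library a. Between SCNT4c-TDG and SCNT4c-KG *BID* differed by -1.75 ± 0.38 (-2.57 to -0.94, limma adjusted p = 0.00602), and the means of 1788 and 5939 differed 3.32-fold. This call was kept under every alternative setting, at -1.87 to -1.56 with 1 library left out. Against SCNT4c the difference was 0.92 in SCNT4c-KG (0.10 to 1.74, limma adjusted p = 0.0697) and -0.83 in SCNT4c-TDG (-1.65 to -0.02, limma adjusted p = 0.106), and neither passed the test. Without SCNT4c replicate a, the TDG difference was -1.16 (limma adjusted p = 0.0424) and passed. In SCNT8c against SCNT4c *BID* differed by 1.24 (0.42 to 2.05, limma adjusted p = 0.0644), and without SCNT8c replicate 3 by 1.70 (limma adjusted p = 0.00075), which passed. Without that library the other members still did not pass in SCNT8c, at -0.48 for *PMAIP1*, 1.34 for *BAK1*, -0.27 for *BCL2*, 0.00405 for *BCL2L1* and 2.32 for *CASP9*. In PFF against SCNT4c *BID* differed by -2.20 ± 0.30 (limma adjusted p = 0.000633), a 4.82-fold difference of means. Relative to the median of all features, *BID* differed by -1.73 between the treatments and by -2.13 in PFF.

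**Figure D2:**
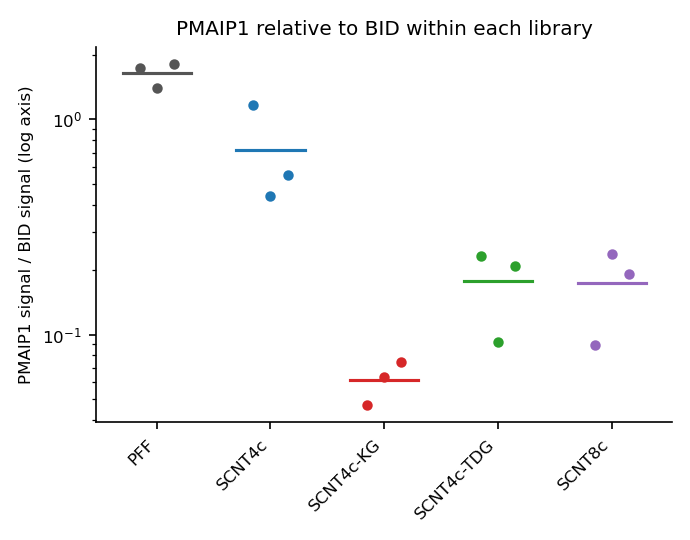
Ratio of *PMAIP1* to *BID* normalized read counts (y axis, log scale) in each of the 15 libraries by group (x axis), with 1 point a library and lines for group means. The ratio is 0.44 to 1.17 in SCNT4c, 0.0469 to 0.0745 in SCNT4c-KG and 0.092 to 0.232 in SCNT4c-TDG.

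Because both genes were read from the same library, their ratio does not depend on the scaling between libraries. The ratio of *PMAIP1* to *BID* was 1.74, 1.39 and 1.81 in PFF and 1.17, 0.44 and 0.554 in SCNT4c. It was 0.0469, 0.0635 and 0.0745 in SCNT4c-KG, 0.232, 0.092 and 0.208 in SCNT4c-TDG and 0.0892, 0.237 and 0.192 in SCNT8c. The 3 SCNT4c libraries had a higher ratio than all 9 other embryo libraries, and the 3 SCNT4c-KG libraries had a lower ratio than all others. The ratio combines 2 genes already tested and was given no test of its own.

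The trigger *BBC3* (chromosome 6 from 53037103 to 53046902, minus strand), was at 172, 168 and 167 in PFF, which rest on 413 reads. In the embryos it was at 0, 2.62 and 0 in SCNT4c, 0, 1.27 and 0 in SCNT4c-KG, 6.69, 0 and 0 in SCNT4c-TDG and 0 in all SCNT8c libraries. The embryo values rest on 3, 1, 8 and 0 reads. The ratio of PFF to SCNT4c was 203.8 (exact 95% interval 69.3 to 992.4), to SCNT4c-KG 355 (63.4 to 14070) and to SCNT4c-TDG 80.4 (40.4 to 188), and PFF was at least 181.5-fold higher than SCNT8c, taking 3 reads over the group as the floor. These intervals and the floor cover counting error only. *BBC3* was higher in PFF than in SCNT4c by the test (limma adjusted p = 6.2e-05), and embryo groups could not be compared at these counts.

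The effector *BAK1* (chromosome 7 from 29808849 to 29815345, minus strand) was at 772, 818 and 878 in PFF and at 194, 68.2 and 60.6 in SCNT4c. It was at 144, 251 and 331 in SCNT4c-KG, at 92.8, 126 and 71.9 in SCNT4c-TDG and at 306, 184 and 113 in SCNT8c. PFF stood above all embryos, and the SCNT4c range was wide because library a was more than the level of b and c together. *BAK1* was higher in PFF than in SCNT4c by 3.13 ± 0.46 (limma adjusted p = 0.000892), a 7.65-fold difference of means. No embryo comparison passed the test. The differences from SCNT4c were 1.29 in SCNT4c-KG (0.09 to 2.49, limma adjusted p = 0.0821), 0.02 in SCNT4c-TDG (limma adjusted p = 0.981) and 0.99 in SCNT8c (limma adjusted p = 0.255). Without SCNT4c replicate a the SCNT4c-KG difference was 1.81 (limma adjusted p = 0.0266) and passed, as it did with DESeq2 (1.37, adjusted p = 0.0422). SCNT4c-TDG lay below SCNT4c-KG without overlap, by -1.27 (limma adjusted p = 0.141). This difference passed in 2 alternatives, both of them fits of these 2 groups alone.

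The effector *BAX* (chromosome 6 from 54222341 to 54228150, plus strand) and the guardian *MCL1* (chromosome 4 from 98562092 to 98567014, plus strand) were listed at 0 in all 15 libraries. Of the known genes, 4062 of 28224 (14.4%) were listed at 0 throughout, among them *SDHA*, a respiratory chain subunit that every cell uses, so a 0 here gives no level. A transcript assembled from the reads at the *BAX* locus had values, at 156, 192 and 172 in PFF and 65.5, 35.8 and 41.5 in SCNT4c. It was at 18.0, 33.0 and 0 in SCNT4c-KG, at 15.9, 9.97 and 13.8 in SCNT4c-TDG and at 25.2, 9.14 and 88.7 in SCNT8c. PFF stood above all embryos and SCNT4c above both treated groups. It was higher in PFF than in SCNT4c by 1.89 ± 0.29 (limma adjusted p = 0.00118), and in SCNT4c-KG against SCNT4c the difference was -2.44 (limma adjusted p = 0.109). Without SCNT4c-KG replicate 2 it was -3.43 (limma adjusted p = 0.0467) and passed, and without replicate 3, the library at 0, it was -0.89. In SCNT4c-TDG against SCNT4c the difference was -1.75 (limma adjusted p = 0.26), which did not pass but did so in 1 alternative. Whether reads were counted by strand is not given in the sources used here, so this transcript is not taken as the level of *BAX*. The *MCL1* locus of the table is shared with 11 other known genes and 4 assembled transcripts, and no value there could be given to *MCL1*. *PMAIP1* is alone at its locus, while that of *BID* also holds 3 other known genes and 3 assembled transcripts and that of *CASP9* 3 and 1, so their reads could be divided with these entries.

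The guardian *BCL2* (chromosome 1 from 158337403 to 158518214, plus strand) was at 211, 178 and 182 in PFF and at 164, 64.7 and 72.2 in SCNT4c. It was at 58.8, 10.2 and 78.4 in SCNT4c-KG, at 63.6, 18.4 and 13.8 in SCNT4c-TDG and at 144, 39.9 and 38.0 in SCNT8c. In SCNT4c and SCNT8c 1 library stood at more than 2-fold the others, and SCNT4c-TDG lay just below SCNT4c without overlap. The differences from SCNT4c, none of which passed, were -1.30 in SCNT4c-KG (limma adjusted p = 0.245), -1.81 in SCNT4c-TDG (limma adjusted p = 0.119) and -0.59 in SCNT8c. These values moved with single libraries, to -0.43 without SCNT4c-KG replicate 2, -2.45 without SCNT4c-TDG replicate 1 and -1.21 without SCNT8c replicate 1. Again none of these passed. The SCNT4c-TDG difference from SCNT4c did pass in a fit of the 2 groups alone (limma adjusted p = 0.036). In PFF *BCL2* was higher by 1.05 ± 0.39 (limma adjusted p = 0.0453), and this call was lost under most alternatives, with 0.20 from edgeR (adjusted p = 0.656) and a loss whenever SCNT4c replicate b or c or any 1 PFF library was left out (0.80 to 1.09).

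The guardian *BCL2L1* (chromosome 17 from 35366139 to 35415798, minus strand) was at 210.1, 209 and 204 in PFF and at 32.3, 5.24 and 14.1 in SCNT4c. It was at 126, 139.6 and 15.7 in SCNT4c-KG, at 15.9, 6.14 and 3.06 in SCNT4c-TDG and at 18.7, 9.98 and 3.17 in SCNT8c. SCNT4c-KG split, with replicates 1 and 2 far above every other embryo library and replicate 3 among them. *BCL2L1* was higher in PFF than in SCNT4c by 3.83 ± 0.61 (limma adjusted p = 0.00128), a 12.05-fold difference of means, and by 4.42 without SCNT4c replicate a and 3.22 without b. The difference of SCNT4c-KG from SCNT4c was 2.19 ± 1.05 (limma adjusted p = 0.111), and without SCNT4c-KG replicate 3 it was 3.19 (limma adjusted p = 0.0311). Without SCNT4c replicate a or b it was 2.78 or 1.57. SCNT4c-TDG against SCNT4c-KG differed by -3.08 ± 1.05 (limma adjusted p = 0.0568), and without SCNT4c-KG replicate 3 by -4.08 (limma adjusted p = 0.0195). Both also passed with DESeq2, at 2.62 (adjusted p = 0.0258) and -3.35 (adjusted p = 0.00792). In SCNT4c-TDG and SCNT8c the differences from SCNT4c were -0.89 and -0.60, and neither passed. Without SCNT4c replicate a they were -0.30 and -0.00868, and without b -1.51 and -1.22.

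The initiator *CASP9* (chromosome 6 from 74707597 to 74730033, minus strand) was at 321, 280.2 and 305 in PFF and at 7.89, 5.24 and 15.8 in SCNT4c. It was at 19.6, 30.5 and 19.9 in SCNT4c-KG, at 9.20, 0 and 0 in SCNT4c-TDG and at 22.4, 101 and 0 in SCNT8c. All SCNT4c-KG libraries lay above all SCNT4c and SCNT4c-TDG libraries, but at low levels. *CASP9* was higher in PFF than in SCNT4c by 4.95 ± 0.40 (limma adjusted p = 5.67e-05), a 31.4-fold difference of means. The difference of SCNT4c-KG from SCNT4c was 1.29 (-1.75 to 4.33, limma adjusted p = 0.496) and that of SCNT4c-TDG from SCNT4c-KG was -3.46 (limma adjusted p = 0.114), and neither passed the test. The latter was -4.58 without SCNT4c-TDG replicate 1, the only library of that group with a value above 0. In SCNT8c the difference from SCNT4c was 0.45 (limma adjusted p = 0.862), at 2.32 without SCNT8c replicate 3 and -1.01 without replicate 2.

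**Figure D3:**
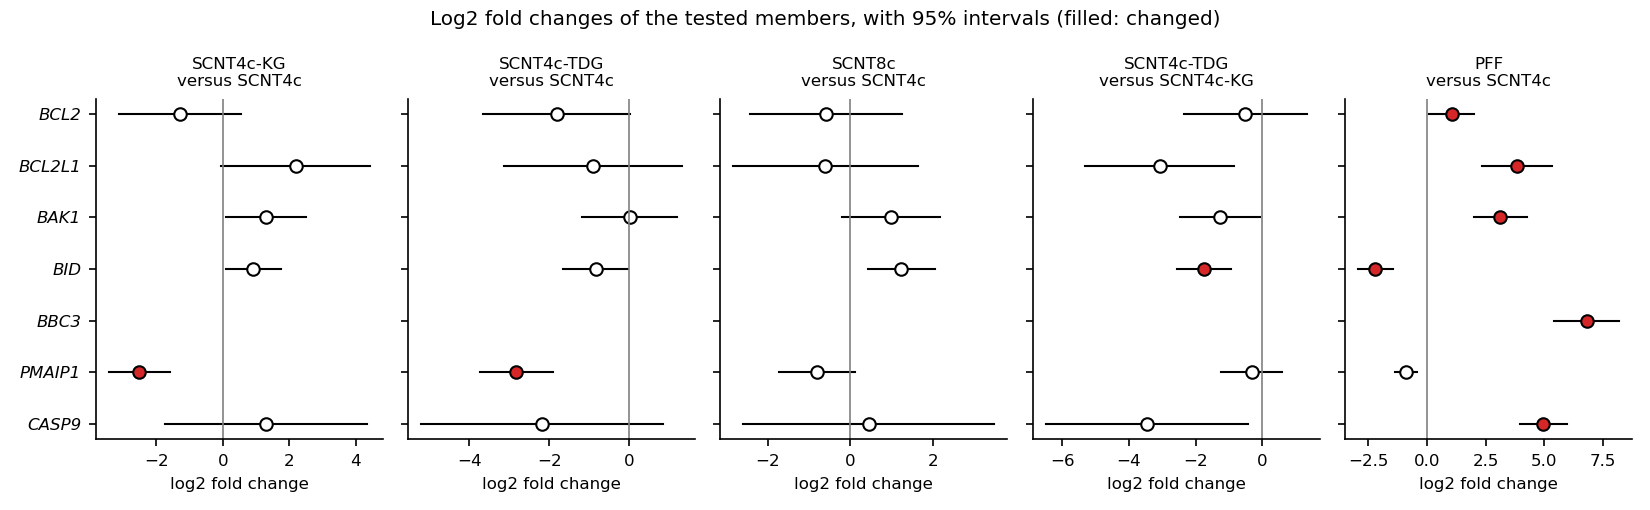
Log2 difference of each tested member (x axis, limma, value + 1) in the 5 comparisons, with circles for the difference, filled where the member changed, and bars for the 95% interval. *PMAIP1* is at -2.52 in SCNT4c-KG and -2.83 in SCNT4c-TDG against SCNT4c, and *BID* is at -1.75 in SCNT4c-TDG against SCNT4c-KG.

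Ordered by group, PFF was highest without overlap for *BCL2*, *BCL2L1*, *BAK1*, *BBC3* and *CASP9*. The PFF calls of *BCL2L1*, *BAK1*, *BBC3*, *CASP9* and *BID* were kept under every alternative run for them. RNA was taken from PFF and from embryos with different kits, which cannot be told apart from the kind of cell in these comparisons. For *BID* the order by mean was SCNT8c, SCNT4c-KG, SCNT4c, SCNT4c-TDG and PFF, in which SCNT8c overlapped with SCNT4c-KG and SCNT4c with SCNT4c-TDG. For *PMAIP1* it was SCNT4c, SCNT8c, PFF, SCNT4c-KG and SCNT4c-TDG, and the only neighbours that did not overlap were PFF and SCNT4c-KG. Per kb of exon, *BID* and *PMAIP1* had the highest levels of the members in every group. In PFF the level per kb was 1034 for *PMAIP1*, 340.1 for *BID* and 296 for *BAK1*. In SCNT4c-KG it was 2961 for *BID* and 340.2 for *PMAIP1*, in SCNT4c-TDG 891 and 284, and in SCNT8c 4038 and 1213. In SCNT4c the order of these genes depended on the length used, with *PMAIP1* at 1940 and *BID* at 1641 per kb of all exons but *BID* at 2313 per kb of its longest transcript.

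To place the members in their pathway, 52 other genes of apoptosis were read from the same fits, of which 47 were in the table and 28 could be tested in the embryos. In SCNT4c-KG 9 of 28 changed, 6 higher and 3 lower, in SCNT4c-TDG 10 of 28, 5 in each direction, and in SCNT8c 5 of 28, 4 higher and 1 lower. Between SCNT4c-TDG and SCNT4c-KG 6 of 28 changed, 1 higher and 5 lower in SCNT4c-TDG, and in PFF 30 of 37 changed, 27 higher and 3 lower. Their median differences were 0.28, 0.13, 1.04, -0.12 and 3.31 in this order, and the last was also 3.31 with the 6 genes that had a group at 0 set to their bound. The medians of all features were -0.30, -0.26, -0.31, -0.02 and -0.07. In the same order the shares changed were 32.1%, 35.7%, 17.9%, 21.4% and 81.1% of the list. Those of all features were 37.2%, 33.3%, 5.79%, 16.2% and 78.2%. The SCNT8c shares rested on single libraries, and no share is read as particular to the list.

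**Figure D4:**
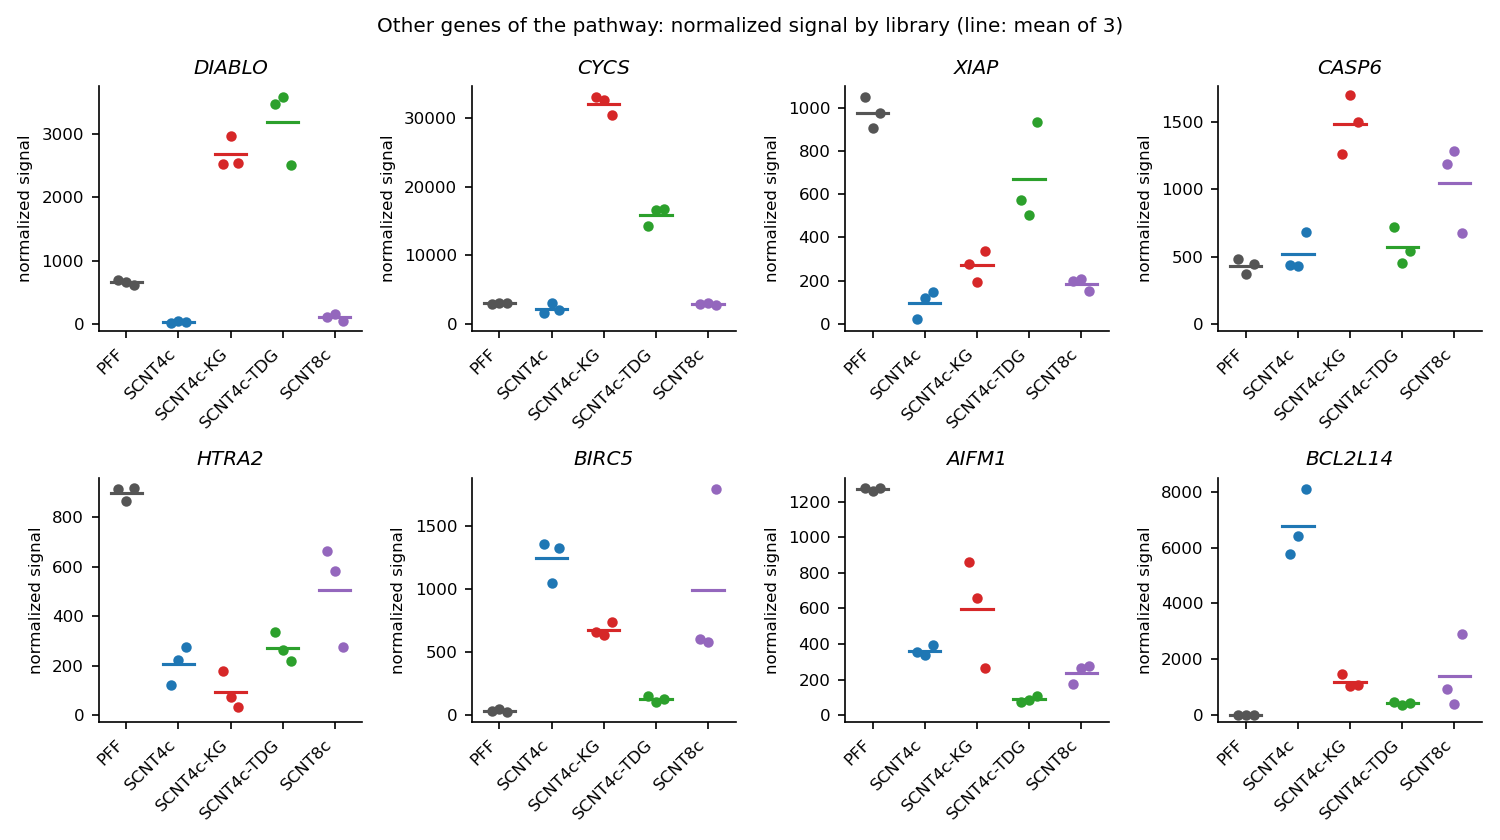
Normalized read count (y axis, labelled normalized signal, linear) of 8 other apoptosis genes in the 15 libraries by group (x axis), with points for libraries and lines for group means. *DIABLO* is at 2508 to 3586 in SCNT4c-KG and SCNT4c-TDG against 15.8 to 45.4 in SCNT4c.

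Of the factors released from mitochondria, *DIABLO* (SMAC), which blocks inhibitors of apoptosis, was at 15.8, 45.4 and 25.7 in SCNT4c and at 102, 163 and 41.2 in SCNT8c. It was at 2535, 2973 and 2538 in SCNT4c-KG and at 3472, 3586 and 2508 in SCNT4c-TDG, and it rose by 6.60 (limma adjusted p = 1.3e-07) and 6.84 (limma adjusted p = 2.3e-07) on the log2 scale. Its locus in the table spans other known genes. *CYCS*, cytochrome c, was at 1568, 2972 and 1992 in SCNT4c, 33121, 32662 and 30484 in SCNT4c-KG and 14258, 16587 and 16711 in SCNT4c-TDG, and it rose by 3.93 (limma adjusted p = 3.6e-08) and 2.91 (limma adjusted p = 1.1e-06). All treated libraries lay far above SCNT4c, PFF (2950.2 to 3039) and SCNT8c (2808 to 2983). *AIFM1*, apoptosis-inducing factor, went another way, at 356, 339 and 395 in SCNT4c, 859, 661 and 264 in SCNT4c-KG and 75.3, 85.1 and 109 in SCNT4c-TDG, and fell by 2.02 in SCNT4c-TDG. *APAF1*, the scaffold of the apoptosome, was at 143, 58.5 and 98.8 in SCNT4c, 75.5 ± 19.5 in SCNT4c-KG and 202 ± 31.6 in SCNT4c-TDG. Its difference of 1.08 in SCNT4c-TDG did not pass (limma adjusted p = 0.107), while DESeq2 gave 1.32 (adjusted p = 0.0116).

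Among the other caspases *CASP6*, which acts downstream of the initiators, was at 440.1, 432 and 679 in SCNT4c and rose by 1.55 in SCNT4c-KG, to 1263, 1700.5 and 1500.5. In SCNT4c-TDG it was at 716, 449.5 and 541, which overlapped with SCNT4c. *CASP8*, the initiator that cleaves BID, was at 0 to 0.830 in SCNT4c and 0.767 to 21.4 in the treated embryos, and was too low to test among embryos.

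Among the inhibitors of apoptosis *XIAP*, which binds caspases directly, was at 22.1, 119.7 and 146 in SCNT4c, 279, 195 and 339 in SCNT4c-KG and 572, 502 and 937 in SCNT4c-TDG. It rose by 3.12 in SCNT4c-TDG (limma adjusted p = 0.000941) and by 1.84 in SCNT4c-KG (limma adjusted p = 0.0235), and the latter was lost in 4 of 17 alternatives, without SCNT4c replicate a (0.99, limma adjusted p = 0.0992), without SCNT4c-KG replicate 1 (limma adjusted p = 0.0595) or 3 (1.66) and with edgeR (1.54). *BIRC5* (survivin), which also serves cell division, was at 1356, 1050.4 and 1327 in SCNT4c, 657, 637 and 738 in SCNT4c-KG and 155, 106 and 128 in SCNT4c-TDG, and it fell by 3.26 in SCNT4c-TDG. The family member *BCL2L14* was at 5774, 6420.1 and 8100.1 in SCNT4c and at no more than 2.44 in PFF, and it fell by 2.49 in SCNT4c-KG and 3.98 in SCNT4c-TDG. The guardian *BCL2L10* was at 1.53 or below in every library. *BCL2L11* (BIM) was at 29.3, 38.2 and 29.8 in PFF and at 0 in all SCNT4c libraries, which makes PFF at least 39.0-fold higher by the same floor of 3 reads over the group.

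In SCNT8c against SCNT4c *DFFB* (3.46), *BCL2L12* (2.32) and *HRK* (2.13) were among the genes that rose, and *BCL2L14* fell by 2.71. Without SCNT8c replicate 3 these differences were 4.28, 2.66, 2.39 and -3.46, in the same order. All 4 calls were lost in a fit of the 2 groups alone and without SCNT4c replicate b or c or SCNT8c replicate 1 or 2. The count of 5 changed genes became 13 without SCNT8c replicate 3, 0 without SCNT4c replicate b or c or SCNT8c replicate 1 or 2, and 3 without SCNT4c replicate a. In PFF against SCNT4c large differences were 6.93 for the ubiquitin ligase gene *MDM2* and 6.24 for the death receptor *TNFRSF1A*, and lower in PFF were *BCL2L14* (-11.53) and *BIRC5* (-5.10). The effector *BOK* had a mean of 159 in PFF and was at 0 in all SCNT4c libraries, so PFF was at least 191-fold higher, and the death ligand gene *FASLG* was at 0 in PFF and had a mean of 114 in SCNT4c, so PFF was at least 92.9-fold lower.

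Over the 12 embryo libraries, the genes whose log2 level was most like that of a member by Pearson's r, out of 9815 compared, were *POLG2* (0.960) and *PFKM* (0.958) for *PMAIP1*, and *PSMC4* (0.983) and *DHDDS* (0.982) for *BID*. For *BAK1* they were *CATSPERG* (0.933) and *DHRS7B* (0.907), for *BCL2L1* *DUSP4* (0.930) and *ANKRD10* (0.921), for *BCL2* *DES* (0.851) and *C18H7orf49* (0.843) and for *CASP9* *DNAJB5* (0.95) and *C7H14orf1* (0.895). The 12 points fall into 4 groups and share their library scaling, so these values describe the pattern only. By Spearman's rho the first gene was the same for *PMAIP1* and *CASP9* and another for the other 4.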

How the data were processed

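Values were the deposited table of the whole series, in which the authors had divided HTSeq counts per gene by a size factor per library (DESeq2), after trimming (Trimmomatic 0.39), alignment to Sscrofa11.1 (STAR 2.5.3a) and transcript assembly (StringTie 2.1.2). The deposited normalized signal is a multiple of whole reads, which were recovered in every library (tolerance 0.01). RNA was taken from pools of embryos or from fibroblasts, made into cDNA by the SMARTer method and sequenced as paired reads. Gene IDs repeated in the table (241) were removed, leaving 43294 features. limma 3.58.1 (R 4.3.3) was run on log2(value + 1), with a mean-variance trend, for features whose mean reached 10, in 1 fit of the 12 embryo libraries and 1 of the 6 PFF and SCNT4c libraries, with Benjamini-Hochberg adjustment over all features. A feature was called changed at an adjusted p below 0.05 and a fold above 2. Alternatives were pseudocounts of 0.1 and 10, no filter or a mean of 50, quantile or equal-total scaling, no fold limit, only the groups compared, summing transcripts of a locus, leaving out each library, and edgeR 4.0.16 and DESeq2 1.42.0 on the recovered reads. The fits were tested on simulated data in which a small set of features changed, in SCNT4c-KG only. Far more features changed in the real data, and that setting was not simulated. From the wider list, up to 4 genes a direction and comparison were named by size among those changed with a mean of at least 100 and groups apart, plus *CASP8*, *APAF1*, *CYCS*, *XIAP*, *BCL2L10* and *BCL2L11*. Some genes of the list are counted but not reported here by name. Sequences and positions are from RefSeq, Sscrofa11.1. The members and the lists were chosen with earlier results of these data known.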

Additional observations from a re-analysis of the deposited data

Results flagged for a closer look

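The effect of TDG induction and that of *KDM4A* with GSK126 differed by the direct test between SCNT4c-TDG and SCNT4c-KG for 1 member and, among other apoptosis genes, the 5 named here. *BID* differed by -1.75 on the log2 scale, with means of 1788 and 5939. *AIFM1* differed by -2.57 (limma adjusted p = 0.00148), *BIRC5* by -2.39 (limma adjusted p = 0.00123) and *CASP6* by -1.40 (limma adjusted p = 0.0119). *CYCS* differed by -1.02 (limma adjusted p = 0.0118), and this was lost in 6 of 17 alternatives, with quantile scaling (-0.27), equal totals (-0.66), edgeR (-0.86) and DESeq2 (-0.88) and without SCNT4c-KG replicate 1 (-0.997) or SCNT4c-TDG replicate 1 (-0.95). *HTRA2*, a protease released from mitochondria, differed by 1.82 (limma adjusted p = 0.0425), at 336, 262 and 219 in SCNT4c-TDG and 178, 72.3 and 32.8 in SCNT4c-KG, and was lost in 7 of 17 alternatives, with edgeR (1.70), without the filter on low values (limma adjusted p = 0.0653) and without any 1 library (1.23 to 1.96) but SCNT4c-KG replicate 1 (2.43). The *CASP6* call was lost in 3 of 17 alternatives, with equal totals (-1.04) and without SCNT4c-KG replicate 2 (-1.30) or SCNT4c-TDG replicate 2 (-1.25). The values of single genes were not screened for a library that stands apart, since each group has 3 libraries.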

How the results depend on the processing

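Of 497 member values under alternative settings, 451 kept direction and side of the threshold, 13 lost and 24 gained the call and 9 changed sign. The members changed in SCNT4c-KG (1) became 2 with a pseudocount of 10 and 3 with DESeq2 (1 to 2 with a library left out). In SCNT4c-TDG they became 2 in a fit of the 2 groups (1 to 2), and in SCNT8c (0) 1 with a minimum mean of 50 or DESeq2 (0 to 1). Between SCNT4c-TDG and SCNT4c-KG (1) they became 2 with a pseudocount of 10, quantile scaling or DESeq2 and 3 in a fit of the 2 groups (1 to 2), and in PFF (6) they stayed between 5 and 7. Of the wider list, SCNT8c (5) gave 3 without the filter, 11 with DESeq2 and 0 in a fit of the 2 groups (0 to 13), and SCNT4c-TDG against SCNT4c-KG (6) gave 3 with edgeR and 11 in a fit of the 2 groups (3 to 6).

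A replicate block in the fit of SCNT4c-TDG and SCNT4c-KG gave 3 members and 12 of the wider list. Same-numbered libraries did not deviate together (correlations -0.0012, -0.0020 and 0.0246), which cannot show whether they were collected together. The results above use no block. No paired analysis was possible because the SCNT4c labels number their libraries in conflicting ways, which holds for all other comparisons.

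Signs turned, in no case with a call, for *BAK1* in SCNT4c-TDG (-0.28 to 0.55 with a library left out), *BCL2L1* in SCNT8c (quantile 0.33, -1.22 to 0.00405), *CASP9* in SCNT8c (pseudocount 0.1 -0.53, -1.01 to 2.32) and the *BAX* locus transcript in SCNT8c (-1.53 to 0.0441). Between SCNT4c-TDG and SCNT4c-KG they turned for *BCL2* (-1.38 to 0.0346), *PMAIP1* (equal totals 0.0528), the *BAX* locus transcript (edgeR -0.22, DESeq2 -0.23, -0.86 to 1.68) and *EZH2* (-0.0152 to 0.21). In PFF they turned for *EZH2* (quantile -0.67, equal totals -0.28, edgeR -0.40, DESeq2 -0.44) and *CYCS* (-0.0498, -0.12, -0.30, -0.34). The cause was not tested.

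Scaling alone moved the median of all features in PFF from -0.07 to -0.67 with equal totals and 0.03 with quantile scaling, and in SCNT8c from -0.31 to -0.25 and 0.02. The features changed in SCNT8c went from 497 higher and 599 lower to 1962 and 771 with DESeq2, which also changes the test, and between SCNT4c-TDG and SCNT4c-KG from 1340 and 1730 to 2036 and 1157 with equal totals.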
